A study of Mus musculus with 11 samples.

Results

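The genes described here are those of glycolysis, of glucose uptake and of the response to low oxygen, read in dendritic cells sorted from mouse spleen. The list names 33 genes, and each was read by the probeset that names that gene alone, the brightest one where there were several. Of the 33 genes, 30 were measured in this way, out of 22180 genes tested. Gpi1 and Eno1 had no such probeset and were not analysed, and Aldoa had only a probeset shared with Aldoart1. That shared probeset differed by 0.05 on the log2 scale, at 6.27 ± 0.15 in exposed cells (SD, n = 5) and 6.22 ± 0.15 in naive cells (SD, n = 6), and it was not tested. The exposed group has 5 arrays of splenic dendritic cells from C57BL/6 mice into which Eµ-Myc lymphoma cells, a B cell lymphoma driven by a Myc transgene, had been transferred. The naive group has 6 arrays from C57BL/6 mice without lymphoma. Per the labels, both groups were sorted as CD11c+ and MHC class II+ cells with over 95% purity. The average splenic load of lymphoma in the transfer mice was 10 to 36% of lymphocytes. The labels give neither the time after transfer nor whether an array stands for 1 mouse, so the p-values rest on the spread between samples, which may be technical. Dendritic cell genes, both sort markers and lineage genes, were bright on all arrays: the 16 measured averaged 11.07 in exposed and 11.21 in naive cells. Of the 16, 2 fell, where 0.546% of all genes did, and neither was a sort marker. They were Cd209a, by 1.023, and Clec4a4, by 0.43 on the log2 scale (limma adjusted p = 0.00345 and 0.0250).

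Glycolysis splits glucose into pyruvate, which is either oxidised in mitochondria or reduced to lactate and exported. Glucose enters through carriers of the SLC2 family, hexokinases trap it, and phosphofructokinase sets the pace of the pathway. In dendritic cells a fast rise of glycolysis is known to accompany activation by microbial signals. Txnip and Arrdc4 are arrestin-domain proteins that pull glucose transporters off the cell surface, and their transcription is known to follow glucose through the factors Mlxip and Mlxipl, which bind paired E-box-like sequences called carbohydrate response elements. Low oxygen stabilises Hif1a protein, which raises transcription of many glycolytic enzymes by binding short motifs with the cores ACGTG or GCGTG.

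In lymphoma-exposed cells Txnip fell and Pfkfb3, which makes the strongest activator of phosphofructokinase, rose, while the other 28 genes did not pass the test. Txnip was 1.41-fold lower and Pfkfb3 1.22-fold higher. Markers of red pulp macrophages, a neighbouring cell type of the spleen, were also higher in exposed cells in 12 of 13 genes without passing. With their mean level as a covariate neither call held. The differences were then -0.42 for Txnip (limma adjusted p = 0.0515) and 0.24 for Pfkfb3 (limma adjusted p = 0.121). This covariate was chosen after the data had been seen, and the part of macrophages in either result was not tested. The glucose transporter gene Slc2a3 had the largest difference of all 30, 1.51-fold lower, but missed the threshold. The 6 listed and measured enzymes from Tpi1 to Pkm, which act between triose phosphate and pyruvate, all had small positive differences. Eno3, a brighter enolase outside the list, differed by -0.03 (limma adjusted p = 0.899). Hif1a differed by 0.01. Throughout, values are log2 expression, differences are exposed minus naive, and changed means that limma's p, adjusted for all genes by Benjamini-Hochberg, was under 0.05. Those 2 changed genes are 6.67% of the 30 measured, and 1.42% of all genes changed: 316 genes, of which 195 were higher (0.879%) and 121 lower (0.546%). At an unadjusted p under 0.05 there were 12 of the 30, 9 higher and 3 lower, where all genes gave 12.2%. The median difference of the 30 genes was 0.03, against 0.01 over all genes tested, and 16 of the 30 differed by less than 0.1 in either direction. A sorted sample holds a mixture of cells, so fewer cells of a type and less RNA per cell cannot be told apart.

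The start regions of Txnip and Arrdc4 are shown because both are known carbohydrate response genes, of which Txnip passed the test and Arrdc4 did not, and those of Pfkfb3 because it was the other changed gene. Each runs from 250 bases before to 50 bases after an annotated start (RefSeq, GRCm38.p6), read in the direction of the gene, and the arrays themselves do not measure promoters. For Txnip (chr3:96557707-96558006, + strand) capitals mark a match to the paired carbohydrate response motif, a pair of CACGNG with 5 bases of any kind between, which begins 85 bases before the start.
Txnip: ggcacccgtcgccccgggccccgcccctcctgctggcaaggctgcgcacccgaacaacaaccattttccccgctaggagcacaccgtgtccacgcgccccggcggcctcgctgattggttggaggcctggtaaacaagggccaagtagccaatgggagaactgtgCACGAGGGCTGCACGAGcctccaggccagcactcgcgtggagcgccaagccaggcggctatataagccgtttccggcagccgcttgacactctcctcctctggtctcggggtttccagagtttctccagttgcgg
In Arrdc4 (chr7:68749189-68749488, - strand) capitals mark a single CACGTG, which begins 193 bases before the start.
Arrdc4: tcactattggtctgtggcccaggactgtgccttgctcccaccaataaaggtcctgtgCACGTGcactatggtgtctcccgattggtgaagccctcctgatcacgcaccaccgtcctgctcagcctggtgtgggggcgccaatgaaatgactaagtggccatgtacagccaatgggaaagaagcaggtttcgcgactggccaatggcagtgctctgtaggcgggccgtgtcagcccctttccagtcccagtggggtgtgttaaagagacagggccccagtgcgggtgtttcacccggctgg
Pfkfb3 has 2 annotated starts. In the start at chr2:11502041-11502340 (- strand) capitals mark CACGTG, 53 bases before the start, and in the start at chr2:11553880-11554179 (- strand) they mark ACGTG, 60 bases before it.
Pfkfb3 start 1: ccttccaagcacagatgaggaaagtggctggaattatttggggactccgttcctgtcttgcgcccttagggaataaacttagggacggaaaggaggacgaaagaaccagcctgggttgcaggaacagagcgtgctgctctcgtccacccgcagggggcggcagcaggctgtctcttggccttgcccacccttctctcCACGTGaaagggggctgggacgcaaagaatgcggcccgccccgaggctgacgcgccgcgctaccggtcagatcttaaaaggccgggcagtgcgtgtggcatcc
Pfkfb3 start 2: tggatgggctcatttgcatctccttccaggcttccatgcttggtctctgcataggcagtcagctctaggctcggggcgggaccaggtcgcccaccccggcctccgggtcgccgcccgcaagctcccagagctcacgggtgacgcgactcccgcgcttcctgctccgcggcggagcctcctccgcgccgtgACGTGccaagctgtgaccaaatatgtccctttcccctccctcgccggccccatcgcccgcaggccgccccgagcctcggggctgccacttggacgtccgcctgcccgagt
Both strands were searched, and every CACGTG also holds ACGTG. The paired motif occurred in 0.0487% of 32851 start regions of the same length, or 16 regions, and among the 31 listed genes with a start region in the table only Txnip held it. CACGTG occurred in 7.15% of regions, ACGTG in 19.6% and GCGTG in 32.4%. Of the 31 listed genes, 7 held CACGTG in a start region, among them Ldha and Hif1a, which did not pass. ACGTG was found in 20 of the 31 and GCGTG in 20 of the 31, so neither core was particular to the genes shown. Matches to GCGTG in Txnip, Arrdc4 and Pfkfb3 start 1 are not in capitals. A match describes letters in this window and shows neither binding nor regulation.

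Txnip, the brake on glucose uptake, which also binds thioredoxin, was lower on every exposed array than on any naive array. It was measured at 10.99, 10.84, 10.89, 11.13 and 11.36 on exposed arrays 1, 2, 3, 4 and 6, against a lowest of 11.37, a median of 11.55 and a highest of 11.71 on the 6 naive arrays. The groups do not overlap, although exposed array 6 lies just under naive array 2. The mean was 11.04 ± 0.21 in exposed cells (SD, n = 5) and 11.54 ± 0.13 in naive cells (SD, n = 6), a difference of -0.49 ± 0.09 (SE; 95% limits -0.69 to -0.30; adjusted p = 0.0179). Groups without overlap were found for 2.29% of all genes, and for Txnip and Pfkfb3 among the 30. A second probeset, which names Txnip together with the overlapping gene Gm15441, averaged 6.25 ± 0.15 in exposed and 6.61 ± 0.19 in naive cells. Without exposed array 2 the difference of Txnip was -0.45 and missed the threshold (adjusted p = 0.0543), and it passed with each of the other 10 arrays left out. With the macrophage covariate it was -0.42 and missed the threshold (adjusted p = 0.0515).

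Arrdc4, the relative with the same known response to glucose, did not pass the test and its groups overlapped. It read 9.30, 9.38, 9.47, 9.25 and 9.26 on the exposed arrays, against a lowest of 9.09, a median of 9.34 and a highest of 9.53 on naive arrays. All 5 exposed values lie inside the naive range, and the difference was 0.01 ± 0.08 (SE; 95% limits -0.16 to 0.17; adjusted p = 0.987). A gene past a threshold and a relative short of it need not differ. The log2 ratio of Txnip to Arrdc4 was lower in exposed cells by -0.50, with 4 of 5 exposed arrays below all naive arrays. The ratio differed by -0.70 in arrays 1 to 3 and by -0.21 in arrays 4 to 6. This pair and the pairs of relatives below were chosen after the values had been seen, so their ratios are a description with no test.

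**Figure D1:**
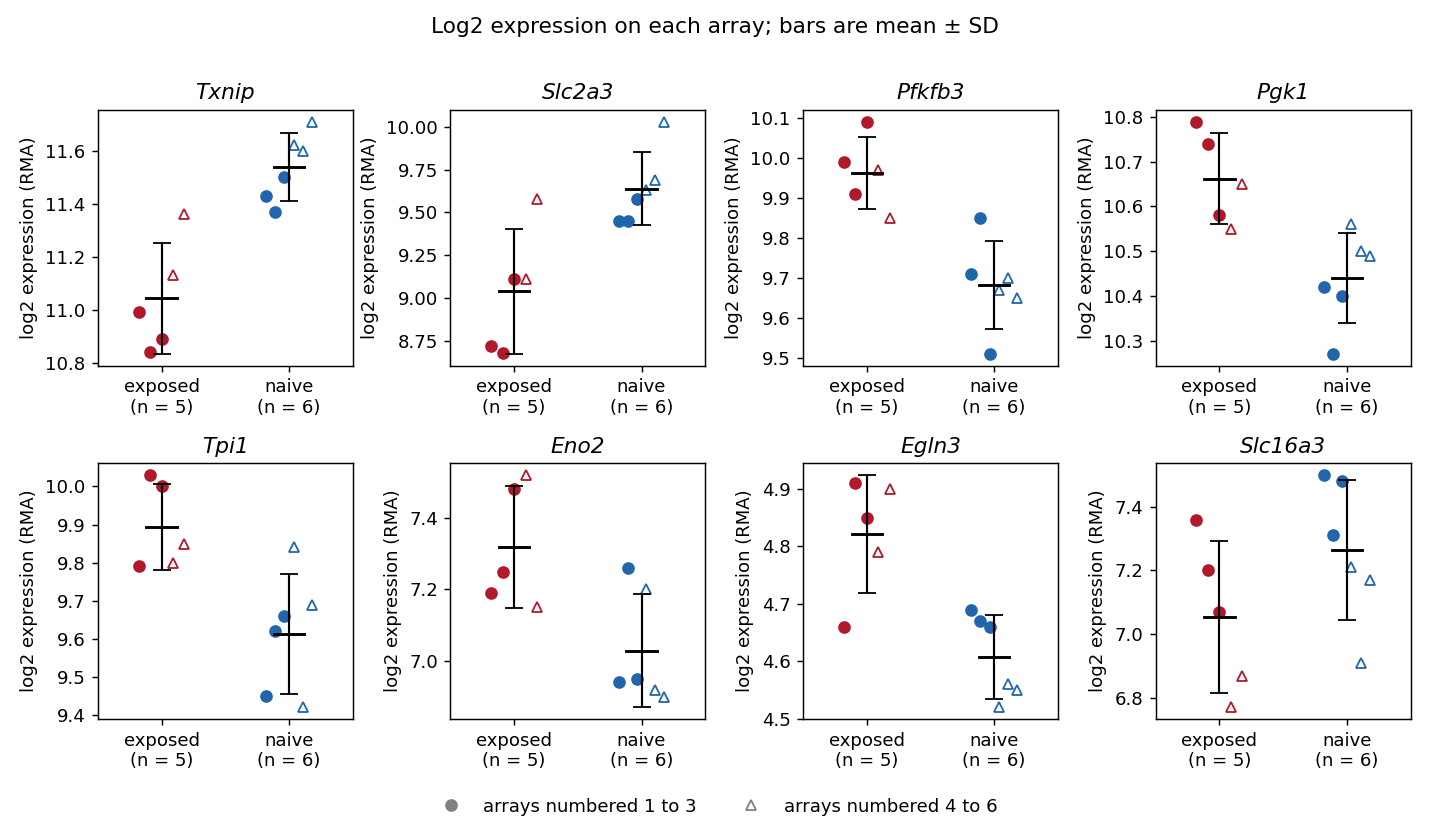
Log2 expression (RMA, vertical axes) of the 8 genes with the largest differences on each array, exposed left and naive right, with bars for mean ± SD and filled circles for arrays numbered 1 to 3, open triangles for arrays numbered 4 to 6. The groups do not overlap for Txnip and Pfkfb3, and 4 of 5 exposed arrays lie outside the naive range for Slc2a3, Pgk1 and Egln3.

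The glucose transporters gave a mixed picture, with 0 of 3 genes past the test. Slc2a3 encodes GLUT3, a carrier with high affinity for glucose. It read 8.72, 8.68, 9.11, 9.11 and 9.58 on the exposed arrays, against a lowest of 9.45, a median of 9.61 and a highest of 10.03 on naive arrays. Exposed arrays 1 to 4 lay below all naive arrays, and exposed array 6 lay among them. The difference was -0.60 ± 0.15 (SE; 95% limits -0.92 to -0.27; adjusted p = 0.0737). With each array left out in turn it passed in 1 of 11 runs, the one without exposed array 6 (-0.73, adjusted p = 0.0115). The highest adjusted p of those runs was 0.191, without exposed array 2. Slc2a3 passed with the array number set, explained below, as a block (-0.56, adjusted p = 0.0173). With the macrophage covariate it missed the threshold (-0.40, adjusted p = 0.191).

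Slc2a1, which encodes the widespread carrier GLUT1, lay between 8.68 and 8.95 on exposed and between 8.85 and 8.94 on naive arrays, with a difference of -0.07 ± 0.05 (SE; 95% limits -0.18 to 0.05; adjusted p = 0.694). The log2 ratio of Slc2a3 to Slc2a1 was lower in exposed cells by -0.53, with 4 of 5 exposed arrays below all naive arrays. Slc2a6, a carrier of lysosomal membranes, differed by 0.08 ± 0.07 (SE, adjusted p = 0.740).

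Txnip and Slc2a3 shared their extreme arrays. Naive array 6 was the highest array for both genes and exposed array 6 the highest exposed array for both. Exposed array 2 was the lowest for both, while the order between the extremes differed. Txnip was also lower in arrays numbered 1 to 3 than in arrays numbered 4 to 6 in either group. No correlation coefficient is given, since both genes were read on the same arrays, which fall into groups and number sets.

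**Figure D2:**
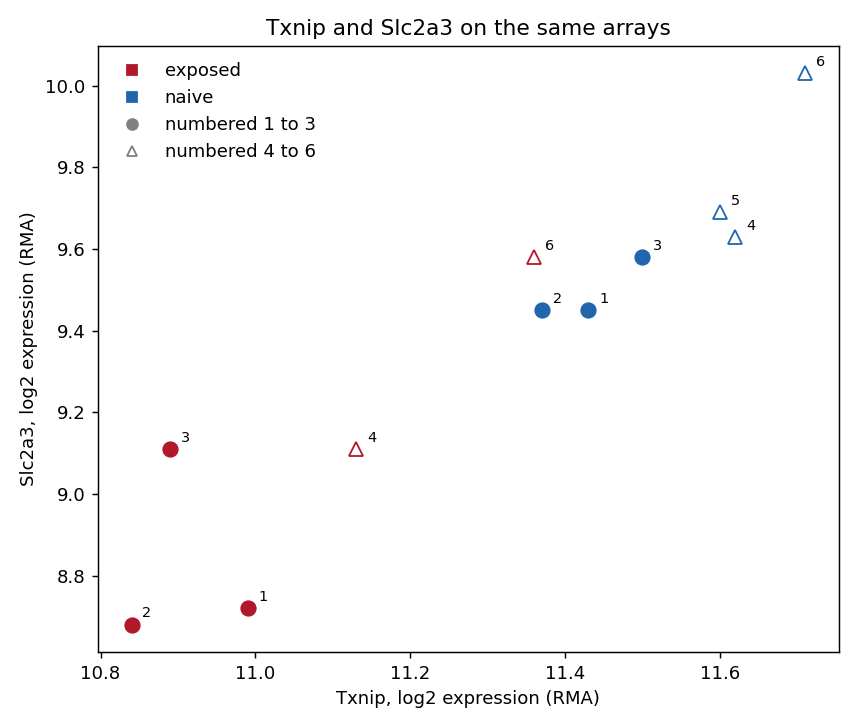
Slc2a3 (vertical axis) against Txnip (horizontal axis), both as log2 expression (RMA), with 1 point per array, colour for the group and the array's number beside it. The 4 exposed arrays numbered 1 to 4 lie below and left of all naive arrays, and exposed array 6, at 11.36 for Txnip and 9.58 for Slc2a3, lies beside the naive arrays.

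The hexokinases, which phosphorylate glucose and so keep it in the cell, gave 0 changed genes of 3. Hk2, the form known to be induced when glycolysis speeds up, lay between 8.51 and 8.69 on exposed and between 8.57 and 8.89 on naive arrays, with a difference of -0.13 ± 0.06 (SE; 95% limits -0.26 to -0.001; adjusted p = 0.404). The housekeeping form Hk1 differed by -0.07 ± 0.07 (SE, adjusted p = 0.761), and Hk3, a form of myeloid cells, by 0.05 ± 0.11 (SE, adjusted p = 0.911).

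Phosphofructokinase and its regulators form the next control point. Pfkl, Pfkm and Pfkp encode the liver, muscle and platelet forms of phosphofructokinase and differed by 0.04, 0.02 and 0.04, with adjusted p from 0.893 to 0.949. Pfkfb3 encodes the inducible enzyme that makes the sugar bisphosphate activating phosphofructokinase. It read 9.99, 9.91, 10.09, 9.97 and 9.85 on the exposed arrays, against a lowest of 9.51, a median of 9.69 and a highest of 9.85 on naive arrays. Exposed array 6 and naive array 2 were nearly equal, and the groups did not overlap. The means were 9.96 ± 0.09 in exposed (SD, n = 5) and 9.68 ± 0.11 in naive cells (SD, n = 6), a difference of 0.28 ± 0.06 (SE; 95% limits 0.15 to 0.41; adjusted p = 0.0400).

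This rise lay close to the threshold, and it was lost without the trend in limma's variance (adjusted p = 0.0586) and with the macrophage covariate (0.24, adjusted p = 0.121). Left out in turn, only 2 of the 11 arrays, naive 2 and exposed 6, left a call (adjusted p = 0.0352 and 0.0298), and the highest adjusted p was 0.102, without exposed array 3, while its size stayed between 0.25 and 0.32. With every array shifted to a common 75th percentile it was 0.24 (adjusted p = 0.124); that scaling also moved the balance over all genes to 168 higher and 223 lower, against 195 and 121. Its relative Pfkfb4 differed by -0.01 ± 0.08 (SE; 95% limits -0.19 to 0.17; adjusted p = 0.977). The log2 ratio of Pfkfb3 to Pfkfb4 was 0.29 higher in exposed cells, and it exceeded every naive ratio on 2 of 5 exposed arrays.

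**Figure D3:**
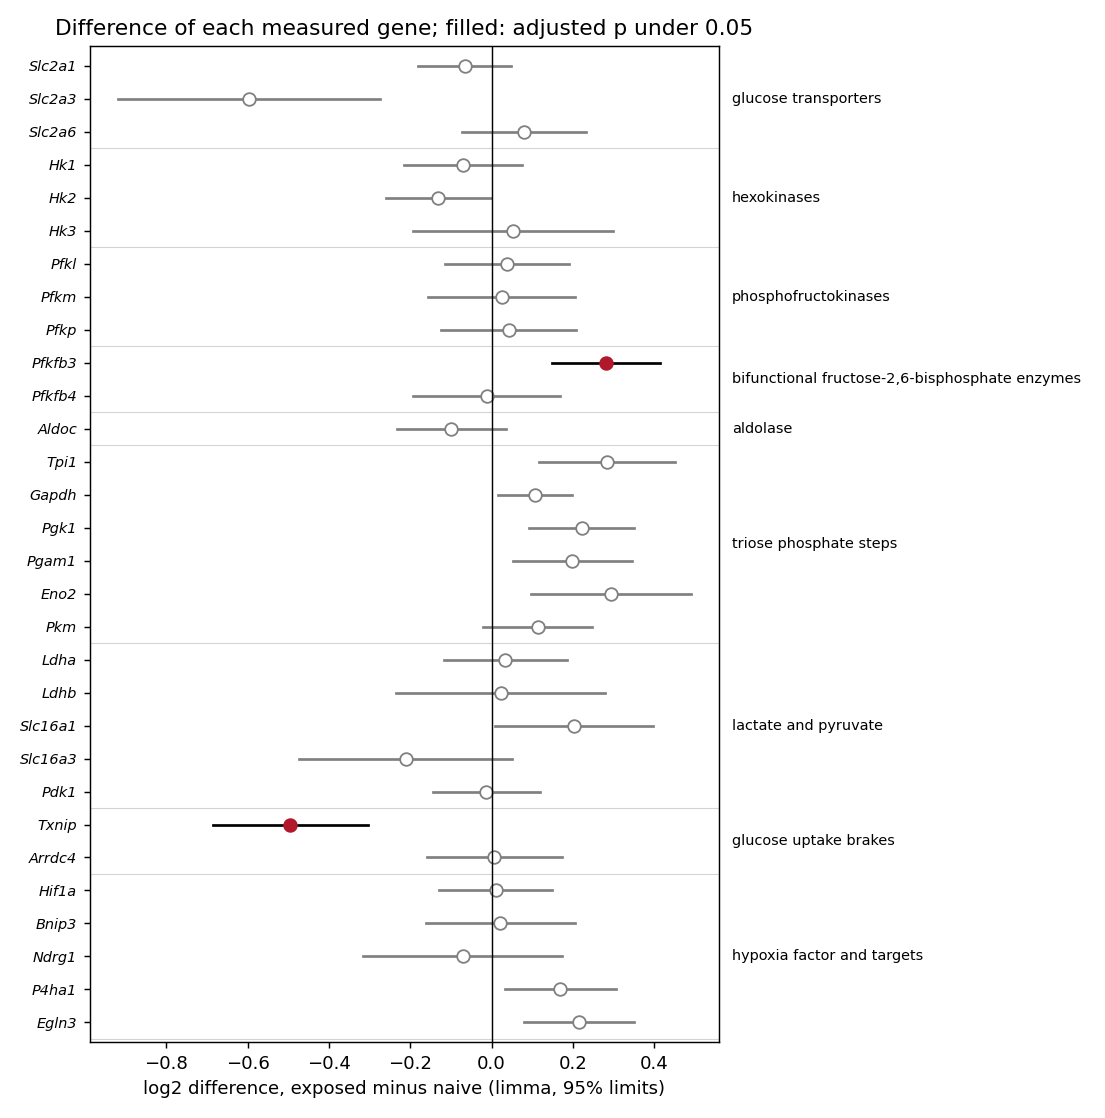
Log2 difference, exposed minus naive, of the 30 measured genes (horizontal axis) with 95% limits from limma, 1 gene per line in the order of the pathway, and filled points for adjusted p under 0.05. Txnip at -0.49 and Pfkfb3 at 0.28 are filled, and the 6 genes from Tpi1 to Pkm all lie right of 0.

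Aldoc, the aldolase that splits the hexose, differed by -0.10 ± 0.06 (SE, adjusted p = 0.592). The 6 enzymes that follow it, Tpi1, Gapdh, Pgk1, Pgam1, Eno2 and Pkm, had positive differences, between 0.11 and 0.29, with a median of 0.21, and 0 of the 6 passed. Of all genes 53.5% had positive differences, and 5 of the 6 had an unadjusted p under 0.05, where 12.2% of all genes did. This grouping by pathway step was made with the values in view, so nothing is read from its count alone.

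Tpi1, which interconverts the 2 triose phosphates, read 9.79, 10.03, 10.00, 9.80 and 9.85 on the exposed arrays, against a lowest of 9.42, a median of 9.64 and a highest of 9.84 on naive arrays. Exposed arrays 2, 3 and 6 exceeded the naive range, and the difference was 0.28 ± 0.08 (SE, adjusted p = 0.103). Pgk1, the enzyme of the earlier ATP-forming step, read 10.79, 10.74, 10.58, 10.55 and 10.65 on the exposed arrays, against a lowest of 10.27, a median of 10.46 and a highest of 10.56 on naive arrays. Here 4 exposed arrays lay above all naive arrays, and the difference was 0.22 ± 0.06 (SE, adjusted p = 0.101). Eno2, a form of enolase best known from neurons, read 7.19, 7.25, 7.48, 7.52 and 7.15 on the exposed arrays, against a lowest of 6.90, a median of 6.94 and a highest of 7.26 on naive arrays. Only exposed arrays 3 and 4 exceeded all naive arrays, and the difference was 0.29 ± 0.09 (SE, adjusted p = 0.161). Eno3, an enolase among the further isozymes below, was brighter, at 10.27 in exposed and 10.30 in naive cells. It differed by -0.03 (adjusted p = 0.899), opposite in sign to Eno2.

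The remaining triose enzymes differed less. Pgam1, the phosphoglycerate mutase, gave 0.20 ± 0.07 (SE, adjusted p = 0.216), and its other probeset, at 6.77 in exposed and 6.56 in naive cells, gave 0.21. Gapdh, the dehydrogenase often used as a housekeeping gene, lay between 12.61 and 12.76 on exposed and between 12.47 and 12.64 on naive arrays, a difference of 0.11 ± 0.04 (SE, adjusted p = 0.301). All 11 probesets that name Gapdh, of which 3 name it alone, gave positive differences, from 0.07 to 0.16. Gapdh and Pgam1 have many processed pseudogenes, so their probesets may read more than 1 locus. Pkm, the pyruvate kinase, differed by 0.11 ± 0.06 (SE, adjusted p = 0.514).

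Of the 5 genes that handle pyruvate and lactate, 0 passed. Ldha, the lactate dehydrogenase subunit favoured in glycolytic cells and a known Hif1a target, lay between 7.67 and 8.09 on exposed and between 7.80 and 7.94 on naive arrays, a difference of 0.03 ± 0.07 (SE; 95% limits -0.12 to 0.19; adjusted p = 0.907). Ldhb, the subunit favoured in oxidative tissue, differed by 0.02 ± 0.12 (SE, adjusted p = 0.969), and Pdk1, the kinase that holds pyruvate back from mitochondria, by -0.01 ± 0.06 (SE, adjusted p = 0.965).

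The lactate carriers pointed apart without passing. Slc16a3, which encodes the export carrier MCT4, read 7.36, 7.20, 7.07, 6.77 and 6.87 on the exposed arrays, against a lowest of 6.91, a median of 7.26 and a highest of 7.50 on naive arrays. The groups overlapped widely, and the difference was -0.21 ± 0.12 (SE, adjusted p = 0.541). A probeset that names Slc16a3 together with Csnk1d, at 9.65 in exposed and 9.66 in naive cells, gave -0.02. Slc16a1, which encodes MCT1, a carrier of lactate and pyruvate, differed by 0.20 ± 0.09 (SE; 95% limits 0.01 to 0.40; adjusted p = 0.383).

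Of Hif1a and 4 hypoxia-induced genes 0 passed, 4 of the 5 differences were positive and the median was 0.02. Egln3 and P4ha1 had an unadjusted p under 0.05. Hif1a lay between 9.17 and 9.55 on exposed and between 9.21 and 9.42 on naive arrays, a difference of 0.01 ± 0.06 (SE; 95% limits -0.13 to 0.15; adjusted p = 0.973). Transcript level does not report on Hif1a protein, which oxygen controls after translation. Egln3, a prolyl hydroxylase that marks Hif1a protein for degradation and is itself induced by hypoxia, read 4.66, 4.91, 4.85, 4.79 and 4.90 on the exposed arrays, against a lowest of 4.52, a median of 4.61 and a highest of 4.69 on naive arrays. Its difference was 0.21 ± 0.06 (SE, adjusted p = 0.130). It was the only one of the 30 genes whose mean lay under 5.605. That mark is the 95th percentile of olfactory receptor genes, which are not expected in these cells. Ldhb lay just above it, at 5.64 ± 0.30 in exposed (SD, n = 5) and 5.62 ± 0.12 in naive cells (SD, n = 6). P4ha1, a subunit of collagen prolyl hydroxylase, differed by 0.17 ± 0.06 (SE, adjusted p = 0.268), Bnip3, a receptor for mitophagy, by 0.02 ± 0.08 (SE, adjusted p = 0.957) and the stress gene Ndrg1 by -0.07 ± 0.11 (SE, adjusted p = 0.875).

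Genes around these pathways were counted in the same fit, from lists chosen with earlier results known. Of 107 measured genes in 8 lists, 2 changed, both higher and both among 16 other hypoxia-induced genes, where 1.42% of all genes changed; nothing is read from this share. Adm, the vasodilator adrenomedullin, averaged 6.99 ± 0.36 in exposed (SD, n = 5) and 6.23 ± 0.13 in naive cells (SD, n = 6), a rise of 0.76 ± 0.14 (SE, adjusted p = 0.0174). Mif, a cytokine, averaged 9.56 ± 0.06 in exposed and 9.29 ± 0.09 in naive cells, a rise of 0.27 ± 0.05 (SE, adjusted p = 0.0239). For either gene, every exposed array was above every naive array. The median of those 16 genes was 0.01, with 8 positive and 8 negative. Ddit4, a brake on mTOR that hypoxia induces, differed by -0.38 (adjusted p = 0.520), with an SD of 0.59 over the 5 exposed arrays. Kdm3a, another gene of that list, differed by -0.21 and missed the threshold (adjusted p = 0.0683). It passed with the array number set, explained below, as a block (-0.22, adjusted p = 0.0453).

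In the other lists 0 genes passed. Among 24 genes of pyruvate oxidation and the citric acid cycle the median difference was 0.06 and the largest that of Mdh2, malate dehydrogenase, at -0.18 (adjusted p = 0.213). All 6 measured genes of the pentose phosphate pathway were positive, where 53.5% of all genes were, and their median was only 0.05. Pgd, the phosphogluconate dehydrogenase of that pathway, led with 0.28 (adjusted p = 0.150), and nothing is read from the count. Of 14 genes of glycogen and glucose synthesis Pygl, glycogen phosphorylase, had the largest difference, 0.22 (adjusted p = 0.137). Of 16 other glucose and monocarboxylate carriers it was Slc16a10, a carrier of aromatic amino acids, at 0.77 (adjusted p = 0.0615), with no overlap between the groups.

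Among 14 further isozymes and regulators Gpd2, the mitochondrial glycerol phosphate dehydrogenase, differed by -0.31 (adjusted p = 0.0602), with no overlap between the groups. Of 9 arrestin-domain relatives and glucose-sensing factors Arrdc3 had the largest difference, 0.33 (adjusted p = 0.157), opposite in sign to Txnip. Txn1, the thioredoxin that Txnip binds, was higher on all exposed than on all naive arrays but did not pass, at 0.14 (adjusted p = 0.180). The 8 other HIF pathway factors had a median of -0.01, and Arnt, the partner of Hif1a, gave -0.11 (adjusted p = 0.349).

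The arrays numbered 1 to 3 in their titles differed from those numbered 4 to 6 within either group, and the labels say nothing of this split. Between these number sets 3.3% of all genes differed, with group as a term, and 2 of the 30 genes did. Txnip was 0.27 higher (adjusted p = 0.0184) and Slc16a3 0.36 lower in arrays 4 to 6 (-0.36, adjusted p = 0.0229). The 3 naive arrays of either set are matched by 3 exposed arrays in the set 1 to 3 and by 2 in the set 4 to 6, so the set can enter the fit as a block. Then 3 of the 30 genes passed, where 2.78% of all genes did (1.65% higher and 1.14% lower). Txnip was lower by -0.47 (adjusted p = 0.00168), Slc2a3 by -0.56 and Pfkfb3 higher by 0.28 (adjusted p = 0.0292).

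Within the sets, Txnip differed by -0.52 in arrays 1 to 3 and -0.40 in arrays 4 to 6, Slc2a3 by -0.65 and -0.44, and Pfkfb3 by 0.30 and 0.24. Of the 30 genes 12 were positive in both sets, 7 negative in both and 11 of opposite sign. The test of whether the difference itself varied with the set, an interaction term in limma, called 0 of the 30 and 0 (0%) over all genes. At an unadjusted p under 0.05 it gave 3 of the 30, where all genes gave 4.25%. Those 3 were Arrdc4, at 0.17 in arrays 1 to 3 and -0.19 in arrays 4 to 6, Ldhb, at 0.20 and -0.25, and Pgk1, at 0.34 and 0.08. Of these, Ldhb averaged only just above the olfactory receptor mark of 5.605 in either group.

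**Figure D4:**
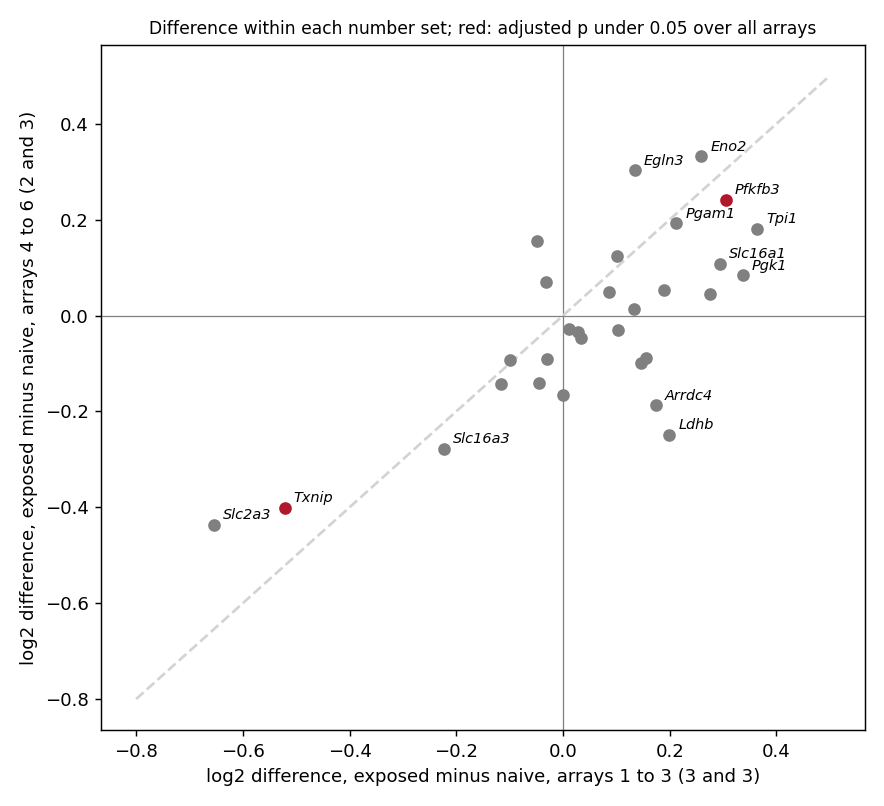
Log2 difference, exposed minus naive, in arrays 4 to 6 (vertical axis, 2 exposed and 3 naive arrays) against that in arrays 1 to 3 (horizontal axis, 3 exposed and 3 naive arrays), 1 point per gene for the 30 genes, with the dashed line marking equal differences. Txnip and Pfkfb3, in red, and Slc2a3 have the same sign in both sets, and Arrdc4 and Ldhb have opposite signs.

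Markers of red pulp macrophages, which share the spleen with the sorted cells, moved with exposure on some arrays. Of 13 such genes 12 were positive, 0 passed the test and all 13 lay above the dim level of 5.605. Their mean log2 level ran from 8.36 to 10.36 on exposed and from 7.88 to 8.91 on naive arrays, and was highest on exposed arrays 1 and 2. Exposed arrays 3, 4 and 6 lay within the naive range of these markers. With the marker mean as a covariate Txnip differed by -0.42 (adjusted p = 0.0515), Pfkfb3 by 0.24 (adjusted p = 0.121) and Slc2a3 by -0.40 (adjusted p = 0.191), so 0 of the 30 genes passed, while 257 of all genes did. Cell cycle genes also moved: 6 of 14 measured rose, 0 fell, where 0.879% of all genes rose, and their mean level ran from 9.37 to 9.82 on exposed and from 9.11 to 9.38 on naive arrays. Of markers of other cells, 1 of 9 for B cells fell (Cd22, -0.54), where 0.546% of all genes fell. Of these 9, 5 were positive, with a median of 0.06. For monocytes 1 of 7 rose (Lyz2, 0.50), where 0.879% of all genes rose, and 6 of the 7 were positive, with a median of 0.33. For NK cells 1 of 7 rose (Ncr1, 0.46), 4 of the 7 were positive and 3 negative, and 4 of the 7 were dim. Of the neutrophil markers 7 of 9 were dim. The part of red pulp macrophages, of cell cycle genes and of these other cells in the results was not tested.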

How the data were processed

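RNA was isolated with a column kit and labelled with Affymetrix WT PLUS reagents, per the labels' protocols, for 1 array per sample. The deposited values are log2 expression per probeset, made by the authors with RMA, per the submitters' processing notes; its version is not given in the sources used here. Of 41801 probesets 34472 held values, 23521 of these named 1 gene, 1814 several and 9137 none in the platform table, and 23328 were matched to current symbols by gene ID (GRCm38.p6 gene table). The brightest probeset per gene was kept.

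Differences were fitted over all 22180 genes with limma 3.58.1 (lmFit, eBayes with trend) in R 4.3.3. SE is limma's moderated standard error. No dim gene was removed. Depth does not apply to arrays, and their number limits precision. The members, lists and tests were chosen with earlier results of these data known. All 30 measured genes are named. Per-array values are given for genes past the threshold, also with the number set as a block, and for the 8 largest differences. Of each related list up to 3 changed genes per direction, or the largest difference, are named. Txn1, Ddit4 and Kdm3a were added after their values were seen. Macrophage markers were used as a covariate and the ratios formed after the data had been seen.

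For the last exposed array the title says 6 and the replicate field 5; the title was followed. On simulated data of 22180 genes in this design, the fit called 98% of genes with a 2-fold change and 87% of those with 0.5 on the log2 scale, with 16 false calls among 201. These shares describe the simulated data and not single genes on these arrays, where Slc2a3, at -0.60, and Slc16a10, at 0.77, missed the threshold.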

Additional observations from a re-analysis of the deposited data

Results flagged for a closer look

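In 3 of 60 groups of array values, 1 array lay far from the others by Dixon's test at its 95% level, and chance gives about 3. Pfkl read 8.63 on exposed array 2, where the other 4 exposed arrays lay between 8.41 and 8.46. Slc16a1 read 7.15 on naive array 2, below the other 5 naive arrays at 7.39 to 7.51. Pdk1 read 7.20 on naive array 6, above the others at 6.99 to 7.06. None of the 3 genes passed the test between groups with any single array left out.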

How the results depend on the processing

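The fall of Txnip and the positive difference of Pfkfb3 kept their direction under every alternative run. Of the 12 alternatives that kept all arrays, Txnip passed 11 (-0.53 to -0.46) and missed 1, the macrophage covariate (-0.42). Pfkfb3 passed 7 (0.28) and missed 5 (0.24 to 0.28, adjusted p up to 0.133), and Slc2a3 passed 5. The count of changed genes among the 30 was 1 with no trend in limma, 0 in arrays 1 to 3 alone, 0 in arrays 4 to 6 alone and 0 with the macrophage covariate, and it ranged from 0 to 3 with single arrays left out; the sets alone hold fewer arrays. It was 0 without exposed array 2 and 1 without any of 8 other arrays: naive 1, 3, 4, 5 or 6, or exposed 1, 3 or 4. The count over all genes was 617 with the number set as a block, 11 and 5 within arrays 1 to 3 and 4 to 6, and 104 (without exposed array 2) to 395 (without exposed array 6) with arrays left out; it also moved by over 1.5 times without naive 1, 2, 3, 5 or 6 or exposed 3 (155 to 205). Changed genes in the related lists numbered 4 with a common 75th percentile, 6 among genes above the dim level, 6 with the number set as a block, 0 and 0 within the sets and 4 with the macrophage covariate, and 1 (without naive 1, 2, 5 or 6 or exposed 2 or 3) to 4 (without exposed 6) with arrays left out. The cause of these shifts was not tested. The median difference of the 30 genes lay between 0.01 and 0.05 with arrays left out. With the replicate block by title number, Txnip and Slc2a3 passed (-0.48 with adjusted p = 0.00410, and -0.59 with adjusted p = 0.00632) and Pfkfb3 did not (0.28, adjusted p = 0.0937), with 341 genes over all. With the replicate block by the characteristics number, 182 genes passed, and Pfkfb3 had an adjusted p of 0.133. After group means were removed, same-numbered arrays correlated at 0.0880 to 0.231, and 2 of 5 exposed arrays correlated best with their own number, so the numbers were not taken as pairs.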
